A study of Homo sapiens with 8 samples.

Results

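The signals of 9 genes of the FOXO pathway were followed on all arrays of the series: the transcription factors FOXO1, FOXO3 and FOXO4, and the genes FBXO32, IRS2, CCNG2, INSR, SESN3 and IRS1, which belong to the same signalling pathway or are described as FOXO targets. They were chosen by name, as genes of a pathway whose kinases caffeine inhibits, with earlier results of these data known. Every probe set that the array annotation assigns to 1 of these symbols alone was used, which gave 37 probe sets for the 9 genes out of 54675 probe sets and 19775 genes with a probe set of their own. Of the 37 probe sets, 23 had a mean log2 signal of at least 4 over the arrays and were tested, 10 stayed under 4 on every array, and 4 (1 of FBXO32, 1 of SESN3 and 2 of IRS1) were above 4 on some arrays only.

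The study looked for mRNAs with nonsense mutations in prostate cancer cells, by blocking nonsense-mediated decay with caffeine and then measuring mRNA loss with transcription blocked. LNCaP, from a lymph node metastasis, and 22Rv1, from a xenograft of a prostate carcinoma, each gave 4 plates. In each line 1 plate was treated with 10 mM caffeine for 4 hours and then with 2 µg/ml actinomycin D plus 10 mM caffeine for another 4 hours, and 1 plate was treated with caffeine and then, after washing, with actinomycin D alone. A further plate was harvested after the 4 hours of caffeine, and the last was kept untreated for 4 hours. Actinomycin D blocks transcription, and all actinomycin D plates had first been in caffeine. Each plate gave 1 array, so 8 arrays were made in all and no difference between a pair of arrays has a replicate check.

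FOXO proteins are forkhead transcription factors that carry the signal of insulin and growth factor withdrawal to the genome. Ligand binding to the insulin receptor, encoded by INSR, recruits the adaptors IRS1 and IRS2, which activate PI3K and through it the kinase AKT, and AKT phosphorylates FOXO so that it is held in the cytoplasm. When the kinases are inhibited, FOXO enters the nucleus and acts on genes such as FBXO32, a muscle-wasting ubiquitin ligase also called atrogin-1, CCNG2, an atypical cyclin linked to cell cycle arrest, and SESN3, a sestrin that restrains mTOR.

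FOXO factors bind short forkhead motifs, so the promoters of the members were read for them. Promoter entries from RefSeq (GRCh38.p14) matched 8 of the 9 genes, all but FBXO32, with 11 windows of 300 bases, from 250 before to 50 after a transcription start. Motifs were searched on both strands. The forkhead consensus GTAAACA is in 3.42% of 35116 windows of all genes. Its relative ATAAACA differs from it in the first letter, so the pair cannot match at 1 position, and is in 4.24% of those windows. The third form searched for was CAAAACA, which is in 4.92% of them. A match to at least 1 of the motifs was found in 3 of the 11 windows of the members, against 11.8% of all windows. The matches lay in IRS2 at offset -40 from the start, in 1 of 4 windows of FOXO3 at offset -234 and in FOXO4 at offset 23. The sequences shown are the 250 bases before the start of IRS2 (chr13:109786584-109786833, minus strand), of the FOXO3 start with a match (chr6:108560667-108560916, plus strand) and, for contrast, of CCNG2, which held none of the motifs (chr4:77156957-77157206, plus strand), and 30 bases around the FOXO4 match (chrX:71095863-71095892, plus strand). Capitals mark the motif, which in IRS2 reads as TGTTTTG because the match is on the opposite strand.
IRS2: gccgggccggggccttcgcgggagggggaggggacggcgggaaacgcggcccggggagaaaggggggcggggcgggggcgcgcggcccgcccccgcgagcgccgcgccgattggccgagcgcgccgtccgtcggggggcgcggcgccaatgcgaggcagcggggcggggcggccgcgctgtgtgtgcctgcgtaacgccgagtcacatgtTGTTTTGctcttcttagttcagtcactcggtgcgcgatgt
FOXO3: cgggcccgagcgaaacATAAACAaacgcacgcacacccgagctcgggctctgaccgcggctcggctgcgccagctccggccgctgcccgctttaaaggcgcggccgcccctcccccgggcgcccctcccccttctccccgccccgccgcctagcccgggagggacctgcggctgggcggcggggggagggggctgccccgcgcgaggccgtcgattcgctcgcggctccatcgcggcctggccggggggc
CCNG2: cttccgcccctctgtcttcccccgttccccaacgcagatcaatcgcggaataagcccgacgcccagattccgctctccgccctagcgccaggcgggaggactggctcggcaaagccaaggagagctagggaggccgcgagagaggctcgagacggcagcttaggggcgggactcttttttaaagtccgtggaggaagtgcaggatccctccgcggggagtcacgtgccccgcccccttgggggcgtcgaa
FOXO4: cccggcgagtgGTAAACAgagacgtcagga
A match describes these letters in this window only, and no factor binding was measured.

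Signals are log2 values after gcRMA, on which 1 unit is a doubling, and a comparison counts a probe set as detected where 1 or more of the arrays compared reach 4. gcRMA gave every array 1 common distribution, which makes each signal relative to the other transcripts of its array, and in these bulk samples fewer cells and less RNA per cell cannot be told apart. The LNCaP array of actinomycin D with caffeine stood apart in its 18S rRNA probe sets, whose mean log2 signal was 11.71, against 4.09 to 7.08 on the other 7 arrays. Poly-A controls, added to the RNA before labelling, had mean log2 signals of 6.76 to 7.35 on the 4 actinomycin D arrays, against 5.75 to 6.53 on the 4 caffeine and untreated arrays. All 8 markers of prostate luminal epithelium measured were above 4 on every array, and markers of basal epithelium, leukocytes and endothelium were under 4 on every array.

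**Figure D1:**
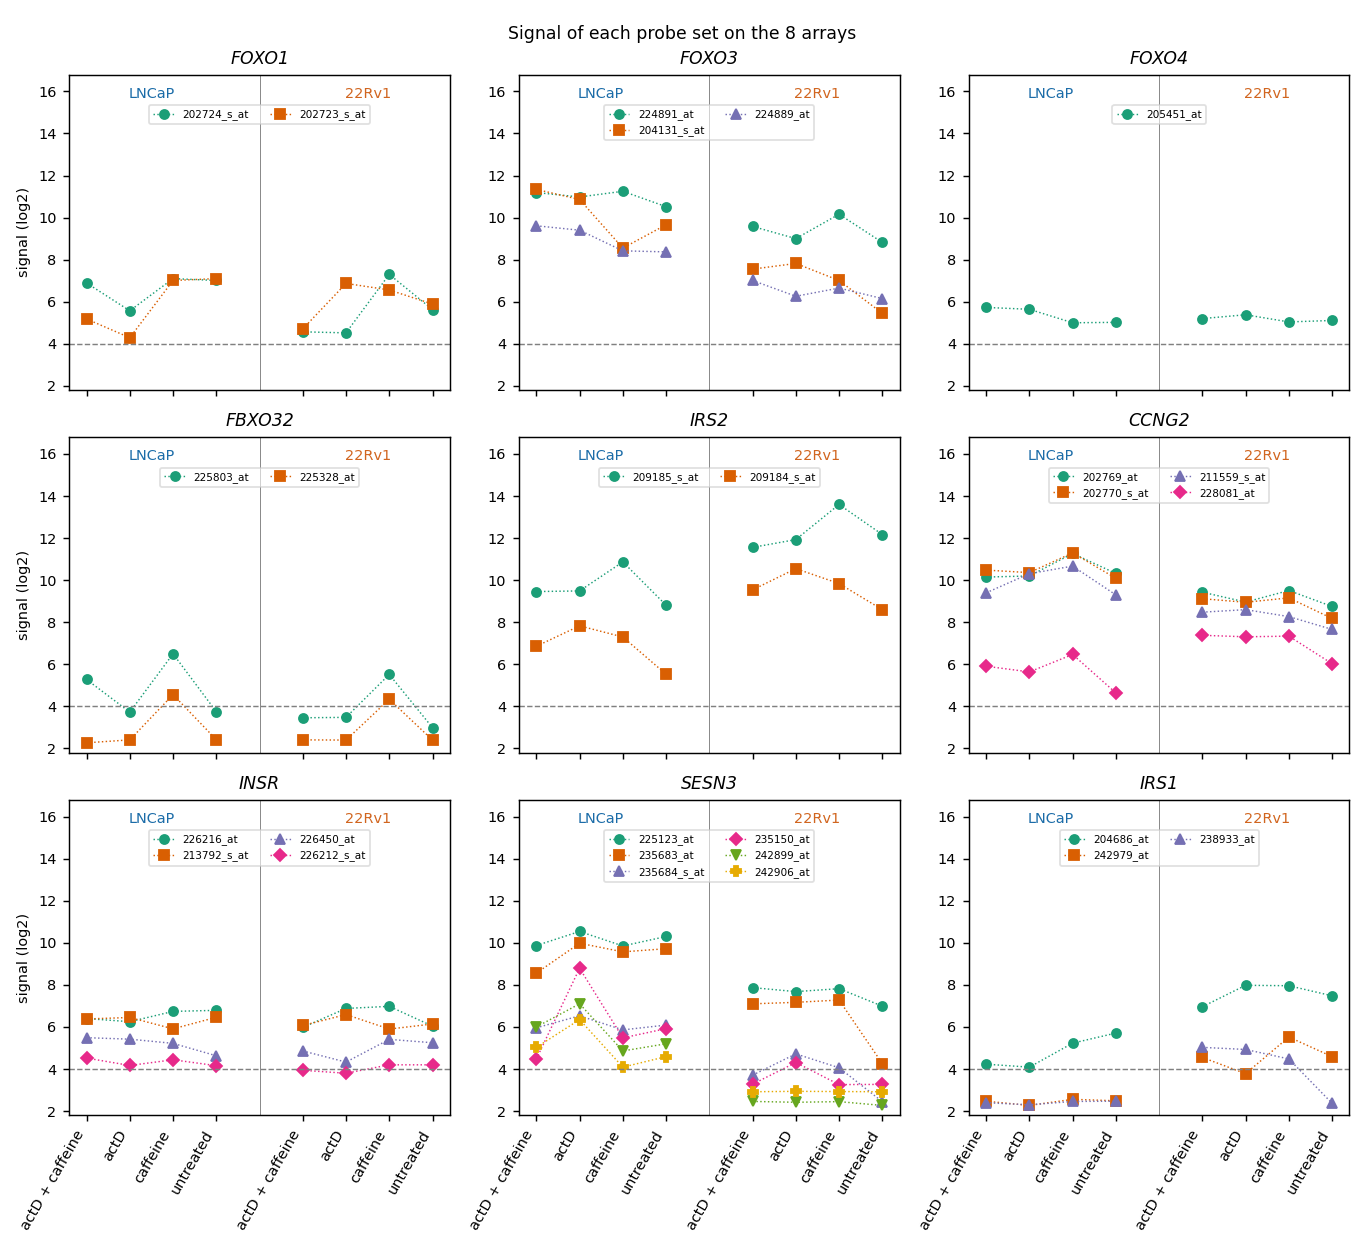
Log2 signal (y axis) of each member probe set that was above 4 on at least 1 array, for the 4 treatments of LNCaP (left) and 22Rv1 (right) in each panel, with 1 array per point. The dashed line marks the detection level of 4, which FBXO32 crosses on both caffeine arrays, and IRS2 is higher in 22Rv1 while FOXO3 and SESN3 are higher in LNCaP.

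Caffeine was compared with untreated cells to ask which mRNAs accumulated during the first step. The adaptor gene IRS2, the ubiquitin ligase gene FBXO32 and the cyclin gene CCNG2 had higher signals after caffeine in both lines, FOXO3 did by its main probe set, FOXO1 did in 22Rv1, and FOXO4 showed little difference in either line. Over both lines 0 of the 23 probe sets passed limma at an adjusted p of 0.05, where 0.0420% of all 21453 tested probe sets were called higher and 0.00466% lower. At an unadjusted p under 0.05 there were 8 member probe sets (34.8%), all higher. Of all 21453 probe sets 17.7% passed in either direction, with 2156 higher and 1638 lower. The 8 belonged to FBXO32, IRS2, CCNG2 and FOXO3. By main probe set 4 of the 9 genes passed, all higher, where 10.2% of all genes tested were higher and 7.58% lower. The median estimate of the members was 0.45, against -0.03 for all probe sets.

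FBXO32 had the largest estimate among the 9 genes. Its probe set 225803_at read 6.50 on the caffeine array and 3.75 on the untreated array of LNCaP, and 5.52 on the caffeine array and 2.99 on the untreated array of 22Rv1. A further probe set, 225328_at, read 4.56 after caffeine and 2.42 untreated in LNCaP, and 4.34 after caffeine and 2.40 untreated in 22Rv1. Both probe sets were above the detection level on the caffeine arrays of both lines and under it on the untreated arrays, and such differences have no exact size. The limma estimate for 225803_at was 2.64 (SE 0.38, adjusted p = 0.0691), and 2.01 (SE 0.38, adjusted p = 0.0936) with signals under 4 set to 4. The other 5 probe sets of the gene stayed under 4 on all arrays.

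IRS2 was higher after caffeine by both of its probe sets. Probe set 209185_s_at read 10.87 after caffeine and 8.81 untreated in LNCaP, and 13.60 after caffeine and 12.17 untreated in 22Rv1. Probe set 209184_s_at read 7.30 after caffeine and 5.53 untreated in LNCaP, and 9.84 after caffeine and 8.60 untreated in 22Rv1. The caffeine array was the highest of its line for 209185_s_at in both lines, but not for 209184_s_at, which was highest after actinomycin D alone. The estimates were 1.74 (SE 0.33, adjusted p = 0.0932 from limma) and 1.50 (SE 0.22, adjusted p = 0.0691).

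CCNG2 was higher after caffeine by all 4 of its detected probe sets in both lines, with differences of 0.96 to 1.83 in LNCaP and 0.62 to 1.32 in 22Rv1. The largest was that of 228081_at, which read 6.47 after caffeine and 4.64 untreated in LNCaP, and 7.34 after caffeine and 6.03 untreated in 22Rv1. Its estimate was 1.57 (SE 0.25, adjusted p = 0.0744 from limma). The main probe set, 202769_at, read 11.27 after caffeine and 10.32 untreated in LNCaP, and 9.51 after caffeine and 8.75 untreated in 22Rv1, with an estimate of 0.86 (SE 0.29, adjusted p = 0.222).

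Among the FOXO genes themselves, the lines differed. FOXO1, by 202724_s_at, read 7.30 after caffeine and 5.63 untreated in 22Rv1, and 7.10 after caffeine and 7.01 untreated in LNCaP. Untreated 22Rv1 was the low value, and the 3 others lay between 7.01 and 7.30. The estimate over both lines was 0.88 (SE 0.55, adjusted p = 0.472 from limma). It was -0.01 without the caffeine array of 22Rv1, where LNCaP alone gives the caffeine signal. Its other probe set, 202723_s_at, read 7.01 after caffeine and 7.10 untreated in LNCaP, and 6.56 after caffeine and 5.89 untreated in 22Rv1, with an estimate of 0.29 (SE 0.87). Whether the lines differed in this was not tested. FOXO3, by 224891_at, read 11.25 after caffeine and 10.52 untreated in LNCaP, and 10.16 after caffeine and 8.82 untreated in 22Rv1, with an estimate of 1.04 (SE 0.26, adjusted p = 0.144). The probe sets of FOXO3 did not run together, since 204131_s_at was lower by 1.11 after caffeine in LNCaP and higher by 1.56 in 22Rv1, and 224889_at differed by 0.05 in LNCaP and 0.50 in 22Rv1. FOXO4, by its single probe set, read 5.0 after caffeine and 5.02 untreated in LNCaP, and 5.04 after caffeine and 5.11 untreated in 22Rv1, with an estimate of -0.04 (SE 0.23).

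The receptor and its other adaptor gave small or single-line differences. INSR, by 226216_at, read 6.74 after caffeine and 6.79 untreated in LNCaP, and 6.98 after caffeine and 6.04 untreated in 22Rv1, with an estimate of 0.45 (SE 0.36). IRS1, by 204686_at, read 5.23 after caffeine and 5.71 untreated in LNCaP, and 7.96 after caffeine and 7.48 untreated in 22Rv1, so the lines ran in opposite directions and the estimate was 0.00 (SE 0.47). A further IRS1 probe set, 238933_at, read 4.48 after caffeine and 2.37 untreated in 22Rv1 and was under 4 on all LNCaP arrays.

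SESN3 also gave different values in the lines. Its probe set 235683_at read 9.57 after caffeine and 9.72 untreated in LNCaP, and 7.28 after caffeine and 4.26 untreated in 22Rv1. Probe set 235684_s_at read 5.86 after caffeine and 6.09 untreated in LNCaP, and 4.06 after caffeine and 2.45 untreated in 22Rv1. The main probe set, 225123_at, read 9.85 after caffeine and 10.30 untreated in LNCaP, and 7.82 after caffeine and 6.99 untreated in 22Rv1. All 3 were higher after caffeine in 22Rv1 and slightly lower in LNCaP, and their estimates over both lines were 1.44 (SE 0.89), 0.69 (SE 0.47) and 0.19 (SE 0.37), with adjusted p-values of 0.463 to 0.853 from limma. The other 2 tested probe sets of SESN3 differed by -0.44 to 0.18 over both lines.

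**Figure D2:**
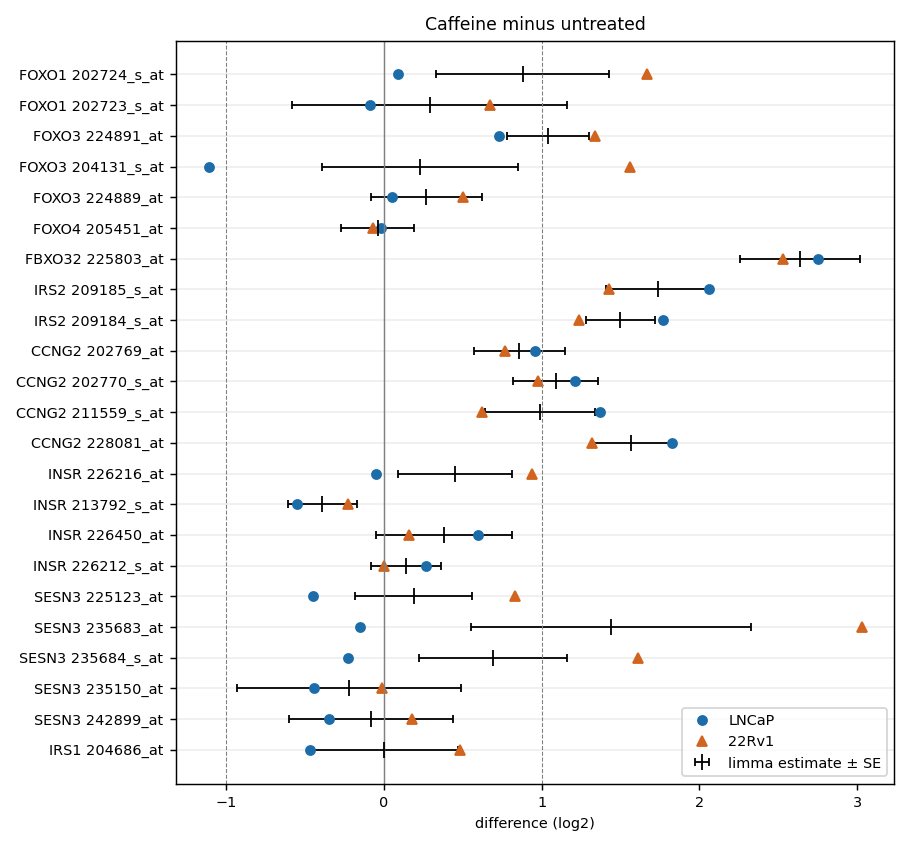
Log2 difference of caffeine minus untreated (x axis) for the 23 tested member probe sets, with LNCaP as circles, 22Rv1 as triangles and the limma estimate with its SE as a bar. Dashed lines mark differences of 1, and FBXO32, IRS2 and CCNG2 lie to the right of 0 in both lines, while probe sets of FOXO1 and SESN3 pass 1 in 22Rv1 only.

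Counted within each line, 7 of 25 detected member probe sets were higher by at least 1 after caffeine in LNCaP (6.36% of all detected probe sets) and 1 was lower (5.24%), which was FOXO3 204131_s_at. In 22Rv1 11 of 24 were higher (9.23%), in 7 of the 9 genes, and 0 were lower (7.79%). The member median was 0.05 in LNCaP and 0.96 in 22Rv1, with -0.03 and -0.04 for all probe sets. Of 22 probe sets detected in both lines, 5 were higher by at least 1 in each (3.04% of all), namely both of FBXO32, both of IRS2 and CCNG2 228081_at, and 0 were lower (1.65%).

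The second step compared actinomycin D with caffeine against actinomycin D alone, to ask which mRNAs were lost more slowly with caffeine kept on. No member probe set was higher by at least 1 in both lines (1.16% of all 19759 detected in both). limma called 0 of the 23 probe sets and 0 of all probe sets in either direction (0% and 0% of 21453), with 2 members at an unadjusted p under 0.05 (8.70% of members and 7.98% of all probe sets) and a smallest adjusted p of 0.365. In LNCaP 2 of 24 detected probe sets were higher by at least 1 (5.29% of all) and 4 were lower (6.78%). In 22Rv1 0 of 22 were higher (3.74%) and 5 were lower (2.00%).

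The probe sets higher in LNCaP belonged to FOXO1 and FBXO32. FOXO1 202724_s_at read 6.89 with caffeine and 5.57 without it in LNCaP, and 4.57 with caffeine and 4.52 without it in 22Rv1. FBXO32 225803_at read 5.28 with caffeine and 3.73 without it in LNCaP, and 3.46 with caffeine and 3.48 without it in 22Rv1, where both arrays were under the detection level. FBXO32 225328_at did not show this, with 2.27 with caffeine and 2.41 without it in LNCaP. In 22Rv1 it read 2.41 with caffeine and 2.40 without it, and all these values were under the detection level. The LNCaP differences of FOXO1 202724_s_at and FBXO32 225803_at rest on the array with the high 18S rRNA signal, whose part in them was not tested. Without that array 22Rv1 alone gives the signal of actinomycin D with caffeine, so such a fit cannot show the part of the array. The estimates were then -0.10 for FOXO1 and 0.19 for FBXO32, against 0.69 (SE 0.55) and 0.77 (SE 0.38) with the array.

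Lower signals with caffeine kept on were found for SESN3 and for 1 probe set of IRS2. All 4 probe sets lower by at least 1 in LNCaP were those of SESN3, and the 5 in 22Rv1 belonged to FOXO1, IRS2, SESN3 and IRS1. SESN3 235150_at read 4.48 with caffeine and 8.79 without it in LNCaP, and 3.28 with caffeine and 4.31 without it in 22Rv1. It was the only member probe set lower by at least 1 in both lines (0.410% of all). Its 22Rv1 value with caffeine was under the detection level, so that difference has no exact size. All the LNCaP values with caffeine are from the array of high 18S rRNA signal, whose part in them was not tested. Without that array 22Rv1 alone gives the signal with caffeine, so such a fit cannot show the part of the array. The estimate of 235150_at was then -1.71, against -2.67 (SE 0.71, adjusted p = 0.471 from limma) with the array. The main probe set, 225123_at, gave 0.12 without the array and -0.24 (SE 0.37) with it. Probe set 235683_at gave 0.29 without it and -0.74 (SE 0.89) with it, so 2 of these estimates changed sign. IRS2 209184_s_at read 6.86 with caffeine and 7.83 without it in LNCaP, and 9.54 with caffeine and 10.55 without it in 22Rv1, with an estimate of -1.0 (SE 0.22, adjusted p = 0.365). The main probe set of IRS2 differed by -0.03 in LNCaP and -0.38 in 22Rv1, and that of SESN3 by -0.66 in LNCaP and 0.18 in 22Rv1. IRS1 204686_at read 6.96 with caffeine and 7.98 without it in 22Rv1, and had an estimate of -0.44 (SE 0.47) over both lines. The main probe sets of FOXO3, CCNG2, INSR and FOXO4 had estimates of 0.39, 0.21, -0.38 and -0.05, with SEs of 0.23 to 0.36. FOXO1 202723_s_at was higher by 0.90 in LNCaP and lower by 2.16 in 22Rv1, so the 2 probe sets of this gene differed.

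Actinomycin D alone against caffeine shows how signals stood after 4 hours without transcription and without caffeine, relative to the level reached in caffeine. FBXO32 fell, and it was the only member that limma called in this comparison (1 of 23 lower, where 1.86% of all probe sets were called lower and 0.475% higher). Its signal was 3.73 after actinomycin D and 6.50 after caffeine in LNCaP, and 3.48 after actinomycin D and 5.52 after caffeine in 22Rv1, and both actinomycin D arrays were back under the detection level. The estimate was -2.41 (SE 0.38, adjusted p = 0.0419). The probe set, 225803_at, met the mean of 4 needed for testing only through arrays of high signal, both caffeine arrays among them. The call is therefore not independent of the filter. The call was lost with signals under 4 set to 4 (-2.01, adjusted p = 0.0587) and when any array other than the LNCaP array of actinomycin D with caffeine was left out (adjusted p of 0.0490 to 0.220 over the 8 arrays left out in turn).

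Other members with large differences were FOXO1 and IRS2. FOXO1 202724_s_at read 5.57 after actinomycin D and 7.10 after caffeine in LNCaP, and 4.52 after actinomycin D and 7.30 after caffeine in 22Rv1, with an estimate of -2.16 (SE 0.55, adjusted p = 0.107 from limma). Its other probe set, 202723_s_at, read 4.29 after actinomycin D and 7.01 after caffeine in LNCaP, but 6.87 after actinomycin D and 6.56 after caffeine in 22Rv1. The 2 probe sets of IRS2 ran in opposite directions. Probe set 209185_s_at was at 9.49 after actinomycin D and 10.87 after caffeine in LNCaP, and at 11.93 after actinomycin D and 13.60 after caffeine in 22Rv1. Probe set 209184_s_at was at 7.83 after actinomycin D and 7.30 after caffeine in LNCaP, and at 10.55 after actinomycin D and 9.84 after caffeine in 22Rv1. The estimates were -1.52 (SE 0.33, adjusted p = 0.0748) and 0.62 (SE 0.22, adjusted p = 0.178). Both probe sets had higher signals after caffeine than in untreated cells, and they differed in what followed.

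FOXO3 likewise depended on the probe set. The main one, 224891_at, was at 10.98 after actinomycin D and 11.25 after caffeine in LNCaP, and at 9.0 after actinomycin D and 10.16 after caffeine in 22Rv1. Probe set 204131_s_at was at 10.86 after actinomycin D and 8.55 after caffeine in LNCaP, and at 7.82 after actinomycin D and 7.01 after caffeine in 22Rv1. Probe set 224889_at was at 9.40 after actinomycin D and 8.42 after caffeine in LNCaP, and at 6.26 after actinomycin D and 6.65 after caffeine in 22Rv1. In LNCaP 2 of the 3 probe sets were thus higher after actinomycin D. Another 3 probe sets carry the symbols FOXO3 and FOXO3B together, a pair of near-identical sequences that these arrays cannot separate, and were kept out of the counts. Of these, 204132_s_at read 9.05 after actinomycin D and 6.16 after caffeine in LNCaP and 210655_s_at read 8.73 after actinomycin D and 5.09 after caffeine. In 22Rv1 these 2 probe sets differed by -0.32 and 0.10.

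SESN3 had higher signals after actinomycin D than after caffeine in LNCaP. Probe set 235150_at read 8.79 after actinomycin D and 5.48 after caffeine in LNCaP. In 22Rv1 it read 4.31 after actinomycin D and 3.26 after caffeine, which is under the detection level. Probe sets 242899_at and 242906_at were higher after actinomycin D by 2.24 and 2.26 in LNCaP and were under 4 throughout in 22Rv1. The main probe set, 225123_at, read 10.54 after actinomycin D and 9.85 after caffeine in LNCaP, and 7.68 after actinomycin D and 7.82 after caffeine in 22Rv1. Its estimate was 0.27 (SE 0.37, adjusted p = 0.710 from limma), and that of 235150_at was 2.18 (SE 0.71, adjusted p = 0.163).

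CCNG2 had differences of -1.08 to -0.36 in LNCaP and of -0.55 to 0.32 in 22Rv1 over its 4 tested probe sets, and the main one had an estimate of -0.82 (SE 0.29, adjusted p = 0.189 from limma). FOXO4 was at 5.64 after actinomycin D and 5.0 after caffeine in LNCaP, and at 5.38 after actinomycin D and 5.04 after caffeine in 22Rv1. INSR and IRS1 had estimates of -0.29 (SE 0.36) and -0.56 (SE 0.47) by their main probe sets.

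**Figure D3:**
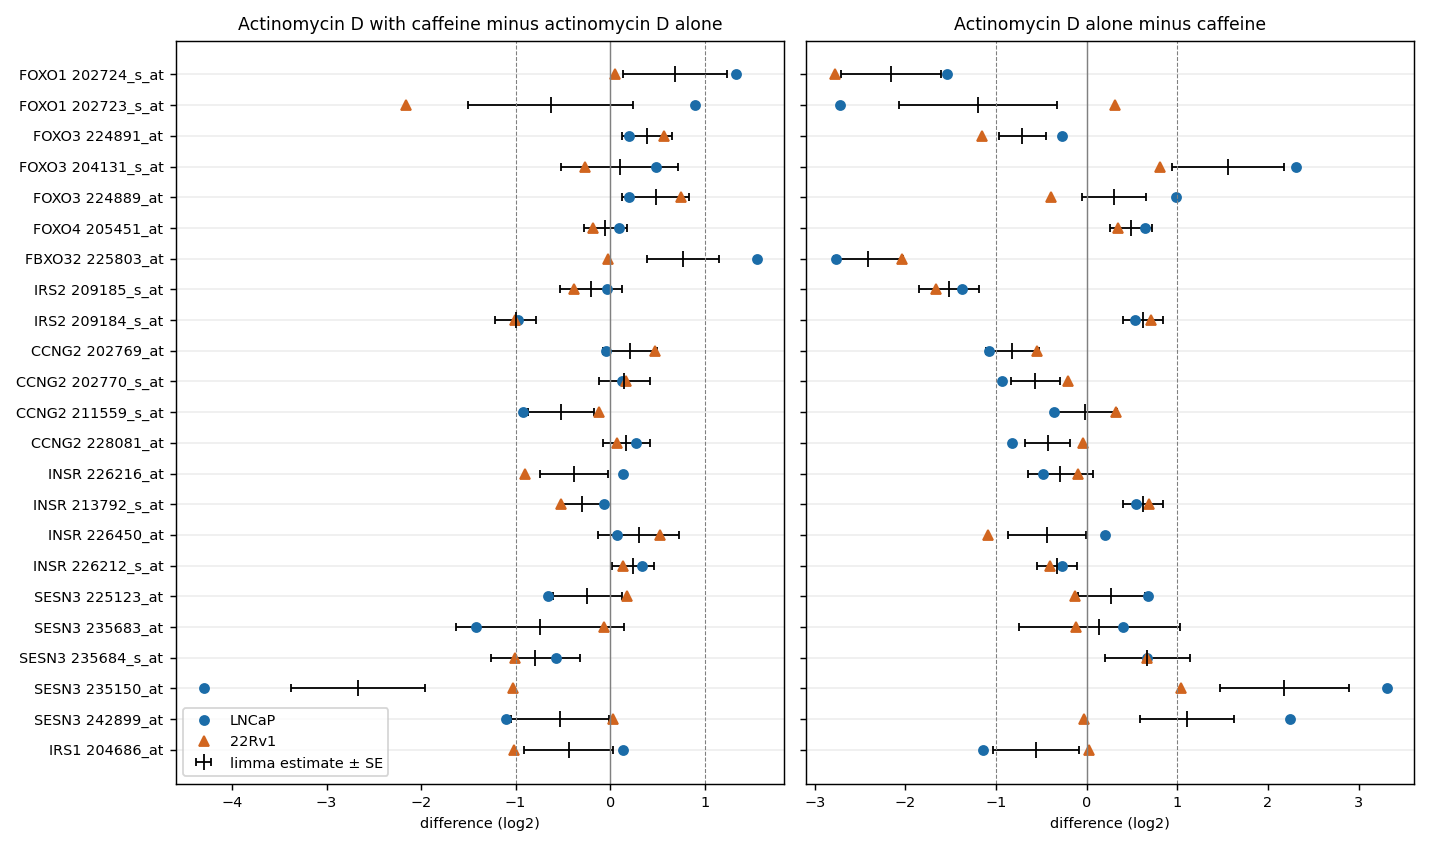
Log2 differences (x axis) for the 23 tested member probe sets, on the left for caffeine kept on during actinomycin D minus actinomycin D alone and on the right for actinomycin D alone minus caffeine, with LNCaP as circles, 22Rv1 as triangles and the limma estimate with its SE as a bar. On the right FBXO32, FOXO1 202724_s_at and IRS2 209185_s_at lie past -1 in both lines and SESN3 235150_at past 1.

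In LNCaP 4 of 25 detected member probe sets were higher by at least 1 after actinomycin D than after caffeine (10.1% of all) and 7 lower (11.0%), and in 22Rv1 1 of 25 was higher (6.06%) and 7 lower (9.39%). In both lines 1 of 23 was higher (2.28%), namely SESN3 235150_at, whose caffeine signal in 22Rv1 was under the detection level. Another 4 were lower (4.97%), namely both probe sets of FBXO32, FOXO1 202724_s_at and IRS2 209185_s_at. The poly-A controls moved with this comparison, and their part in it was not tested. With arrays scaled to equal poly-A means, the median of all tested probe sets moved by -1.16, and 15 of the 23 member probe sets were called lower and 0 higher, against 74.7% of all probe sets called lower and 0.331% higher.

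Actinomycin D with caffeine was also set against caffeine, to give the loss with caffeine kept on. FBXO32, IRS2, FOXO1 and IRS1 had lower signals by at least 1 in both lines by 1 or more of their probe sets. limma called 0 of the 23 members and 0 of all probe sets in either direction (0% and 0%), with 4 members at an unadjusted p under 0.05 (17.4% of members and 12.3% of all probe sets). FBXO32 225803_at read 5.28 after both drugs and 6.50 after caffeine in LNCaP, and 3.46 after both drugs and 5.52 after caffeine in 22Rv1, with an estimate of -1.64 (SE 0.38, adjusted p = 0.211). FBXO32 225328_at read 2.27 after both drugs and 4.56 after caffeine in LNCaP, and 2.41 after both drugs and 4.34 after caffeine in 22Rv1. IRS2 209185_s_at read 9.46 after both drugs and 10.87 after caffeine in LNCaP, and 11.56 after both drugs and 13.60 after caffeine in 22Rv1, with an estimate of -1.73 (SE 0.33, adjusted p = 0.162). Without the LNCaP array of high 18S rRNA, 22Rv1 alone gives the signal after both drugs, and these estimates were -2.22 and -2.10. FOXO1 202723_s_at differed by -1.83 in LNCaP and -1.85 in 22Rv1, and 202724_s_at by -0.21 in LNCaP and -2.73 in 22Rv1. IRS1 204686_at read 4.23 after both drugs and 5.23 after caffeine in LNCaP, and 6.96 after both drugs and 7.96 after caffeine in 22Rv1. In LNCaP 3 of 25 detected probe sets were higher by at least 1 (8.03% of all) and 8 were lower (9.33%), and in 22Rv1 0 of 24 were higher (3.94%) and 7 were lower (6.33%). Of 22 probe sets detected in both lines 0 were higher by at least 1 (1.20% of all) and 5 were lower (1.97%). This comparison and the one before it share the caffeine arrays.

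The lines were compared over all treatments. FOXO3, SESN3 and 3 of the 4 probe sets of CCNG2 were higher in LNCaP, and IRS2 and IRS1 were lower in LNCaP. With the 4 treatments as the replicates of a line, limma called 12 of the 23 probe sets higher in LNCaP (27.4% of all) and 4 lower (26.3%). Several of these probe sets belong to the same gene. By main probe set, 4 of the 9 genes were called higher (28.5% of all 10842 genes tested) and 2 lower (26.8%). The ranges over the 4 arrays did not overlap for 11 probe sets above (20.5%) and 3 below (23.6%). The median estimate was 1.14 for the member probe sets, 0.95 for the main probe sets of the 9 genes and 0.02 for all probe sets.

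Both adaptor genes had lower signals in LNCaP. IRS2 209185_s_at lay between 8.81 and 10.87 in LNCaP and between 11.56 and 13.60 in 22Rv1, with an estimate of -2.66 (SE 0.23, adjusted p = 0.000359). IRS1 204686_at lay between 4.09 and 5.71 in LNCaP and between 6.96 and 7.98 in 22Rv1, with an estimate of -2.78 (SE 0.33, adjusted p = 0.00116). The lowest 22Rv1 array was above the highest LNCaP array for both genes. The receptor gene INSR did not separate the lines, since 226216_at lay between 6.25 and 6.79 in LNCaP and between 5.98 and 6.98 in 22Rv1 (estimate 0.07, SE 0.26).

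FOXO3 was higher in LNCaP by all 3 tested probe sets, with estimates of 1.60 to 3.15 and no overlap between the lines. Probe set 224891_at lay between 10.52 and 11.25 in LNCaP and between 8.82 and 10.16 in 22Rv1 (SE 0.19, adjusted p = 0.00103). FOXO1 202724_s_at gave 1.14 (SE 0.39, adjusted p = 0.0511) with overlapping ranges, and 202723_s_at gave -0.11. FOXO4 gave 0.17 (SE 0.16), with values of 5.0 to 5.73 in LNCaP and 5.04 to 5.38 in 22Rv1.

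SESN3 was higher in LNCaP too. All 5 tested probe sets were higher in LNCaP, by 2.37 to 3.39, with no overlap, and 225123_at lay between 9.85 and 10.54 in LNCaP and between 6.99 and 7.87 in 22Rv1. The 3.39 was that of 242899_at, which was under 4 on all 22Rv1 arrays (2.27 to 2.46). Its mean of 4.10 met the filter through the LNCaP arrays alone. In 22Rv1, 235150_at (3.26 to 4.31) and 235684_s_at (2.45 to 4.72) were also partly under 4. The differences of these 3 probe sets have no exact size. CCNG2 was higher in LNCaP by 3 probe sets (1.32 to 1.70) and lower by the fourth, 228081_at (-1.35, SE 0.18, adjusted p = 0.00161), so its direction depends on the probe set. FBXO32 had an estimate of 0.95 (SE 0.27, adjusted p = 0.0262), with overlapping ranges, and the call was lost with signals under 4 set to 4 (0.56, adjusted p = 0.122) and without the LNCaP array of high 18S rRNA (0.66, adjusted p = 0.0563). Fibroblast markers moved with the lines, with 1 or 2 of 4 above 4 on the LNCaP arrays and 3 of 4 on every 22Rv1 array. Their median log2 signal was 2.42 to 3.29 on LNCaP arrays and 6.09 to 7.51 on 22Rv1 arrays, and COL1A2 was under 4 on all arrays. Of 3 neuroendocrine markers 0 or 1 was above 4 on the LNCaP arrays (medians of 2.79 to 3.15) and 1 or 2 on the 22Rv1 arrays (medians of 3.69 to 5.32), with INSM1 under 4 on all arrays. The part of these markers in the line differences was not tested.

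**Figure D4:**
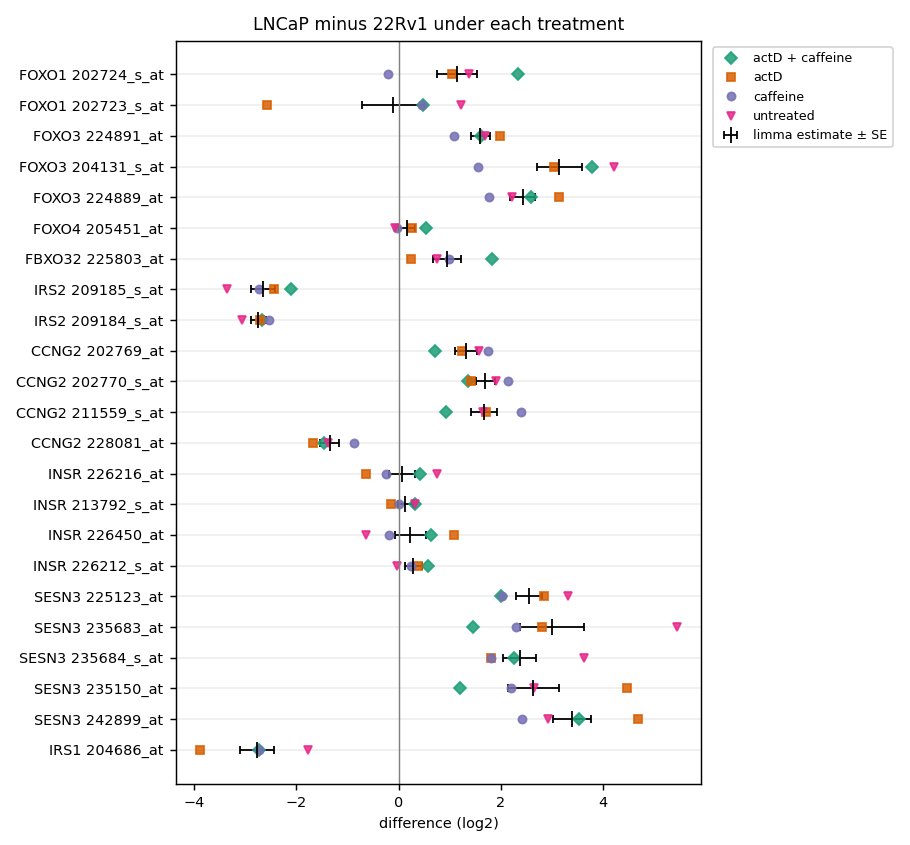
Log2 difference of LNCaP minus 22Rv1 (x axis) under each of the 4 treatments for the 23 tested member probe sets, with the limma estimate and its SE as a bar. All 4 differences are above 0 for FOXO3 and SESN3 and below 0 for IRS2 and IRS1.

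In untreated cells alone, 14 of 24 detected member probe sets were higher by at least 1 in LNCaP (20.3% of all), in 4 genes. Another 5 were lower (19.1%), in 3 genes, and the member median was 1.48. The line difference of SESN3 235683_at was 5.46 in untreated cells and 2.29 after caffeine, and that of FOXO1 202724_s_at was 1.38 in untreated cells and -0.20 after caffeine. For these 2 probe sets the lines were closer after caffeine, and that change was not tested.

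The kinases and phosphatases between the receptor and FOXO were read from a list of 27 genes, of which 22 were analysed. After caffeine 0 of the 22 passed limma (0.0277% of all 10842 genes tested were called higher and 0% lower). At an unadjusted p under 0.05, 6 were higher and 1 lower (10.2% and 7.58% of all genes). Their median estimate was -0.03, against -0.02 for all genes tested. The largest estimates were those of PHLPP2, a phosphatase that acts on AKT (1.44, SE 0.30, adjusted p = 0.106), RICTOR, a subunit of mTOR complex 2 (1.39, SE 0.23, adjusted p = 0.0751), the kinase SGK1, which also phosphorylates FOXO (1.04, SE 0.39), and PIK3R3, a regulatory subunit of PI3K (-0.97, SE 0.46). RICTOR read 9.08 after caffeine and 7.47 untreated in LNCaP, and 9.22 after caffeine and 8.06 untreated in 22Rv1. SGK1 differed by 0.24 in LNCaP and 1.83 in 22Rv1, and PIK3R3 by -0.39 in LNCaP and -1.56 in 22Rv1. Between the lines 10 of the 22 were called higher in LNCaP and 4 lower, against 28.5% and 26.8% of all 10842 genes tested. Those named here were chosen after their values were seen and are the PI3K subunits PIK3CD (6.14, SE 0.32) and PIK3R1 (3.56, SE 0.25) and the kinase AKT2 (-1.76, SE 0.17). PIK3CD was under 4 on all 22Rv1 arrays (2.34 to 3.13), so its difference has no exact size.

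Proteins that modify, bind or export FOXO formed a list of 18 genes, all tested. After caffeine 0 passed limma (0.0277% of all genes were called higher and 0% lower), and the median estimate was -0.21. At an unadjusted p under 0.05, 1 was higher and 1 lower (10.2% and 7.58% of all genes). SIRT1, a deacetylase of FOXO, had the largest (2.52, SE 0.41, adjusted p = 0.0751) and read 8.62 after caffeine and 6.63 untreated in LNCaP, and 10.20 after caffeine and 7.13 untreated in 22Rv1. The next were FOXO6, the other FOXO gene (-1.01, SE 0.42), CTNNB1, encoding the cofactor beta-catenin (-0.86, SE 0.37), and YWHAH, encoding a 14-3-3 protein of the family that holds FOXO in the cytoplasm (-0.74, SE 0.32). FOXO6 differed by -1.85 in LNCaP and -0.17 in 22Rv1, and CTNNB1 by -1.39 in LNCaP and -0.33 in 22Rv1. YWHAH differed by -0.63 in LNCaP and -0.85 in 22Rv1. EP300, an acetyltransferase of FOXO, fell in actinomycin D against caffeine (-1.70, SE 0.27, adjusted p = 0.0430), with 4.98 after actinomycin D and 6.74 after caffeine in LNCaP and 5.65 after actinomycin D and 7.28 after caffeine in 22Rv1, and it was the only gene of the 18 that limma called there (2.41% of all genes were called lower and 0.157% higher).

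Another 37 genes are described as FOXO targets, and 28 of them were tested. After caffeine 0 passed limma, 6 were higher and 1 lower at an unadjusted p under 0.05 (10.2% and 7.58% of all 10842 genes), and the median was 0.21. The 1 lower was CDKN1A (-1.35, SE 0.25), with the smallest adjusted p of the list (0.0932 from limma). It differed by -1.68 in LNCaP and -1.02 in 22Rv1. PDK4, a kinase that shuts off pyruvate oxidation, had the largest estimate (2.39, SE 1.10, adjusted p = 0.327), which came from 22Rv1 alone, with 12.83 after caffeine and 7.97 untreated, while LNCaP had 2.66 after caffeine and 2.73 untreated. SESN2, a further sestrin, followed at 1.46 (SE 0.36), and the autophagy genes GABARAPL1 and ATG14 were each at 1.45 (SE 0.37 and 0.32). In actinomycin D against caffeine 5 of the 28 fell (2.41% of all genes), which were CITED2 (-4.24), SESN2 (-3.49), the death gene BCL2L11 (-3.13), the repressor BCL6 (-2.07) and GADD45A (-1.56), with adjusted p-values of 0.0263 to 0.0369 from limma. CITED2 read 5.78 after actinomycin D and 9.46 after caffeine in LNCaP, and 6.73 after actinomycin D and 11.54 after caffeine in 22Rv1.

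**Figure D5:**
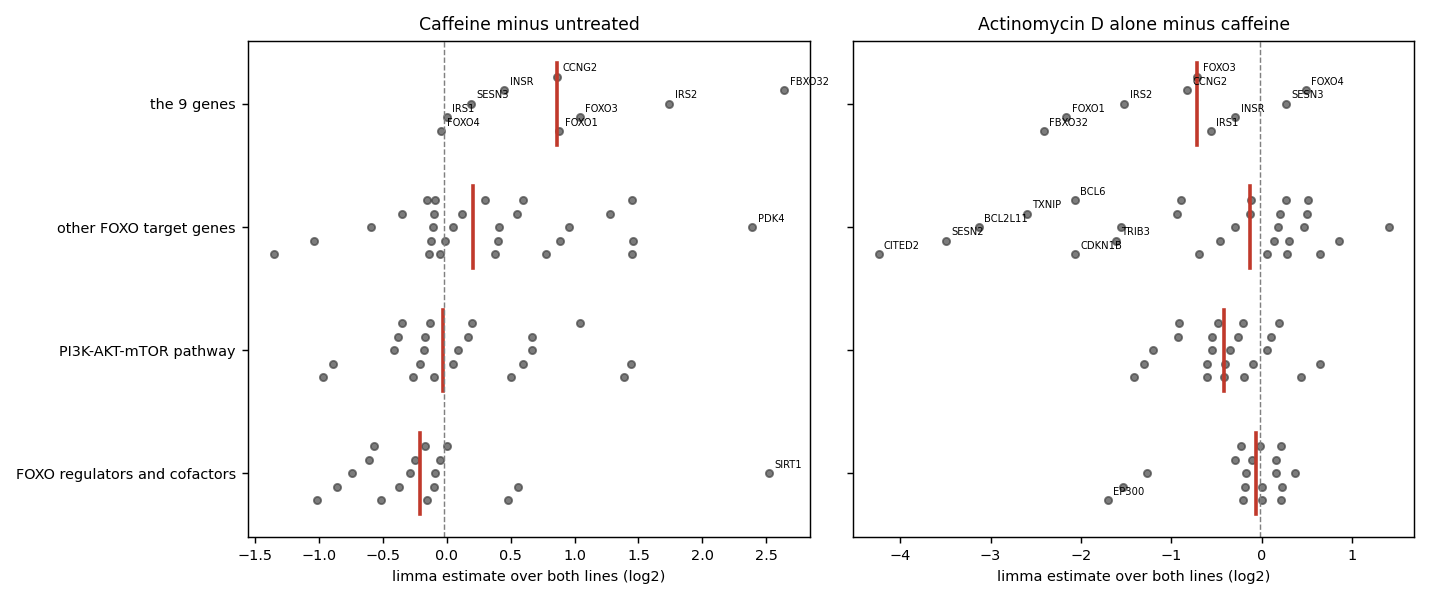
limma estimate over both lines on the log2 scale (x axis) for each tested gene of the 9 members and of the 3 gene lists, caffeine minus untreated on the left and actinomycin D alone minus caffeine on the right. Red bars are list medians and the dashed line is the median of all genes, and FBXO32 and SIRT1 have the highest estimates on the left and CITED2 the lowest on the right.

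The genes most like each member were sought over the 8 arrays, after centring each line on its own mean, among 10841 other genes and for the members whose main probe set spanned at least 1 within both lines. FOXO1 was closest to IRF2BP2 and ZNF200, with a root mean square difference of 0.24 each. FBXO32 was closest to CBLB (0.39) and SYBU (0.45), and IRS2 to SYBU (0.24) and PRDM4 (0.28). IRS1 was closest to CDKN1C (0.16) and SH3BP4 (0.17). SYBU thus stood near both FBXO32 and IRS2, whose signals were both highest on the caffeine arrays.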

How the data were processed

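Total RNA of 8 plates was hybridised to Affymetrix U133 Plus 2.0 arrays, 1 array for each of 4 treatments in 2 cell lines. The authors deposited log2 signals per probe set after gcRMA, which corrects background by probe sequence, gives all arrays 1 distribution and summarises probes. RMA and GCRMA are named in the submitters' processing notes without a version, and the genome build is not given in the sources used here. Background correction leaves dim probe sets at a near-constant floor, so differences that involve signals under 4 are not exact. Arrays have no read depth, and their number limits the precision. Nothing says whether plates of a line were separate cultures, so p-values measure only the spread between these arrays.

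Probe sets were named from the platform annotation, which gives 41097 probe sets 1 symbol, 1801 several and 11777 none, and those with several were left out of counts. Where 1 probe set stands for a gene, it is the one of highest mean signal. Differences within a line were counted at a log2 size of 1 or more where 1 of the arrays reached 4. limma 3.58.1 (R 4.3.3) was fitted with cell line and treatment as additive terms on all 8 arrays (3 residual degrees of freedom), over the 21453 probe sets whose mean was 4 or more. Calls used a Benjamini-Hochberg adjusted p under 0.05. That fit treats the lines as replicates of a treatment. Tables came from pandas 2.3.3 and numpy 2.4.6 and plots from matplotlib 3.10.9, in python 3.11.15. The caffeine fit was tested on simulated data of 21453 probe sets, where 0 of 50 log2 changes of 1, 19 of 50 of 2, 37 of 50 of 3 and 48 of 50 of 4 were called, with 6 calls among 21253 unchanged probe sets. In the data 17.7% of all probe sets stood at an unadjusted p under 0.05 from limma in this comparison, far more than were changed in the simulation. An adjusted p depends on that share, so the simulation does not give the rate of recovery in the data.

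All members were named. From each list the genes named were those limma called in a caffeine comparison and the 4 with the largest caffeine estimates. CDKN1A, and genes called in actinomycin D against caffeine or between lines, were named after their values were seen. The 9 members, the gene lists and the rules were chosen with earlier results of these data known. Alternatives were other filters, detection levels, cut-offs, scalings, probe sets and variance estimates, the fit without the cell line block, the fit of only the arrays compared, and each array left out in turn. With an array left out, its treatment rested on the array of the other line.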

Additional observations from a re-analysis of the deposited data

Results flagged for a closer look

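FOXO1 and FOXO3 each had 1 probe set whose difference ran in opposite directions in the lines. FOXO1 202723_s_at was higher by 0.90 in actinomycin D with caffeine than in actinomycin D alone in LNCaP, and its difference was -2.16 in 22Rv1. FOXO3 204131_s_at had a difference of -1.11 between caffeine and untreated cells in LNCaP and of 1.56 in 22Rv1. Each line has 1 array per treatment, so neither difference between the lines was tested. The main probe sets, FOXO1 202724_s_at (1.33 in LNCaP and 0.05 in 22Rv1) and FOXO3 224891_at (0.73 in LNCaP and 1.34 in 22Rv1), did not show this contrast.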

How the results depend on the processing

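The caffeine comparison over both lines called 0 member probe sets, 2 with a variance trend (0.634% of all), 2 with a mean of at least 6 (1.46%) and 3 with poly-A scaling (0.825%; FBXO32 225803_at and both probe sets of IRS2). Actinomycin D against caffeine called 1, against 2 with a variance trend (3.31% of all), 15 with poly-A scaling (75.1%), 0 with a mean of at least 6, with no filter, with signals under 4 set to 4, with only the arrays compared and with no replicate block, and 0 to 1 with each array left out. In the fit with no replicate block, the cell line was left out as a term. Actinomycin D with caffeine against caffeine called 0, and 13 with poly-A scaling (35.2% of all). That scaling moved the median of all tested probe sets by 0.18 in caffeine against untreated cells, 0.36 in actinomycin D with caffeine against actinomycin D, -1.16 in actinomycin D against caffeine and -0.82 in actinomycin D with caffeine against caffeine. The replicates had no number shared across groups in the labels, so no paired analysis was possible beyond the cell line.

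Within lines, the counts of members past a difference of 1 moved as follows. No share of all probe sets is given for these settings, which also move the other probe sets. The counts therefore show only how they depend on the setting and are no result about the members. In LNCaP, actinomycin D with caffeine against actinomycin D gave 6, and 10 at a cut-off of 0.58. Actinomycin D against caffeine gave 11, and 17 at 0.58, and actinomycin D with caffeine against caffeine gave 11, and 4 at 1.3. In 22Rv1, caffeine against untreated cells gave 11, with 18 at 0.58 and 7 at a detection level of 6. Actinomycin D with caffeine against actinomycin D gave 5, with 8 at 0.58, 1 at 1.3, and 3 each with signals under 4 set to 4, a detection level of 6 and poly-A scaling. Actinomycin D against caffeine gave 8, with 5 at 1.3, 3 at a detection level of 6 and 16 with poly-A scaling, and actinomycin D with caffeine against caffeine gave 7, with 11 under poly-A scaling.

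Estimates of single members that were at least their SE, and differences within a line of at least 1, changed direction as follows, and the cause was not tested. Between caffeine and untreated cells FOXO1 was -0.01 without the 22Rv1 caffeine array (up to 1.77 with other arrays left out), and INSR was -0.01 without the 22Rv1 untreated array (up to 0.90) and -0.39 by 213792_s_at. Between actinomycin D with caffeine and actinomycin D, FOXO1 was -0.10 without the LNCaP array of both drugs (up to 1.48) and -0.63 by 202723_s_at. INSR was 0.09 without the 22Rv1 actinomycin D array (down to -0.84), 0.30 by 226450_at and 0.24 by 226212_s_at. In 22Rv1 alone IRS1 was 0.77 by 242979_at and 0.09 by 238933_at. Between actinomycin D and caffeine FOXO3 was 0.32 as the mean of all probe sets, 1.56 by 204131_s_at and 0.30 by 224889_at. FOXO4 was -0.72 with poly-A scaling, IRS2 was 0.62 by 209184_s_at (0.53 in LNCaP and 0.71 in 22Rv1), and IRS1 was 0.18 without the LNCaP actinomycin D array (down to -1.30). In 22Rv1 alone FOXO1 was 0.31 by 202723_s_at and FOXO3 was 0.81 by 204131_s_at. Between actinomycin D with caffeine and caffeine FOXO3 was 0.51 as the mean of all probe sets, 0.01 without the 22Rv1 caffeine array (down to -0.66), 1.66 by 204131_s_at and 0.77 by 224889_at. FOXO4 was -0.40 with poly-A scaling, INSR was 0.32 by 213792_s_at (0.16 in 22Rv1), and IRS1 in 22Rv1 was 0.55 by 238933_at. Between LNCaP and 22Rv1 FOXO1 was -0.11 by 202723_s_at and CCNG2 was -1.35 by 228081_at (-1.38 in untreated cells). A further 33 changes of sign were from limma estimates under their SE, in FOXO4, SESN3, IRS2, CCNG2, IRS1 and INSR. Among them SESN3 was -0.93 in actinomycin D against caffeine and -0.81 in actinomycin D with caffeine against caffeine, both with poly-A scaling, and INSR was 0.62 in actinomycin D against caffeine by 213792_s_at.

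There was 1 array for each line and treatment, and differences of 1 on the log2 scale were not recovered in simulated data. Over all alternatives the adjusted p of caffeine against untreated cells from limma was 0.0375 to 1 for FBXO32 and 0.046 to 1 for IRS2. Signals under 4 have no exact size, which limits FBXO32 and the dimmer probe sets of SESN3 and IRS1.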
